A study of Bos taurus and Sus scrofa with 10 samples.

Results

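Cyclic AMP (cAMP) is the second messenger that holds mammalian oocytes in meiotic arrest, and 10 genes that make, break down or read it were followed here from the oocyte to the blastocyst. They comprise the receptors GPR3 and GPR12, the adenylyl cyclases ADCY3 and ADCY9, the phosphodiesterase PDE3A, the regulator of G protein signalling RGS2, the exchange factor RAPGEF4, and the protein kinase A subunits PRKACA, PRKAR1A and PRKAR2B. Members were taken by exact gene symbol, and no symbol matched more than 1 entry of a table. All 10 were found among the 22845 gene entries of the cow table, and 9 among the 21867 entries of the pig table, where ADCY9 was not analysed here. Most were high in the oocyte or early cleavage libraries and low later: 6 of 10 in cow and 5 of 9 in pig were lower in the blastocyst than in the oocyte by 4-fold or more on the log scale used, where 18.4% and 19.2% of all genes were. PRKACA and PRKAR1A did not pass that threshold in either species.

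Fully grown oocytes stop in prophase of the first meiotic division while their cAMP is high. GPR3 and GPR12 signal through the stimulatory G protein without needing an added ligand and keep adenylyl cyclase active, and PDE3A, the main cAMP phosphodiesterase of the oocyte, hydrolyses cAMP. High cAMP keeps protein kinase A active, which restrains the cell division kinase, and a drop in cAMP lets meiosis resume. After fertilisation the embryo lives on RNA stored in the oocyte until its own genome is switched on and the stored RNA is cleared.

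RNA was sequenced from cow (Bos taurus) and pig (Sus scrofa) at 5 stages: oocytes, embryos of 2-4 cells, embryos of 8-16 cells, morulae (compacted balls of cells) and blastocysts (an inner cell mass and trophectoderm around a cavity). Each stage of each species was 1 library, 10 in all, so differences between stages have no replicate behind them, and neither tests nor p-values are given. Total RNA was amplified as cDNA with a kit made for small inputs and then by 8 cycles of PCR, and the labels describe no molecular identifiers, so reads do not count single molecules, and all intervals cover counting error only. The labels name no treatment and no breed, and the meiotic state of the oocytes, the origin of the embryos and the number pooled in a library are not given in the sources used here.

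Levels are given in RPM, the reads of a gene per 1000000 reads sequenced, with no correction for the length of the gene. A level thus compares 1 gene between stages of 1 species, and levels are set neither between genes nor between species. The exception is pairs of genes that overlap, which are set side by side to follow their ratio over the stages. Intervals on levels are 95% Wilson intervals of the read count. A difference between stages is that of log2(RPM + 1), later minus earlier, with 0 reads entered at the deposited value of 0.9 of a read. Adding 1 RPM shrinks the changes of genes at low levels. Comparison required 1 RPM in at least 1 of both libraries, and a gene counts as called, as having risen or fallen, when the difference reached 2 either way (4-fold on that scale). Folds are ratios of RPM with an exact 95% interval conditional on the sum of both counts. A fold against 0 reads is given as "at least", with the 0 set to the floor of 3 reads per library. This floor is a one-sided limit for a count of 0 that lies below the upper end of the Wilson interval. Such a fold leaves out the counting error of the other library, so it is not a bound on both counts. In whole embryos, fewer cells of a type and less RNA per cell cannot be told apart.

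Read totals ran from 3899291 to 14182046 in the cow libraries and from 3002751 to 4138616 in the pig libraries, which puts the floor between 0.212 and 0.999 RPM. Mitochondrial genes took 2.74% to 30.2% of the reads in cow and 6.06% to 18.6% in pig, with the highest share in both blastocyst libraries. The stage labels were checked on marker genes. The summed level of 10 oocyte markers was 6098 RPM in the cow oocyte and 0.282 RPM in the cow blastocyst (7724 and 23.6 RPM in pig). That of 11 blastocyst markers was 57.2 RPM in the cow oocyte and 4329 RPM in the cow blastocyst (52.4 and 7286 RPM in pig). In the pig blastocyst KRT8 and KRT18 were at 3629 and 2681 RPM, and NANOG and SOX17 had 0 reads. Cow NANOG was at 116 RPM at the 8-16 cell stage and 14.5 RPM in the blastocyst. At the stages between, the oocyte sum was 5474, 789 and 127 RPM in cow (4328.5, 3808 and 258 RPM in pig). The blastocyst sum there was 56.3, 1754 and 1451 RPM in cow (49.1, 214 and 748 RPM in pig). Among 18 markers of cumulus and granulosa cells, the somatic cells around the oocyte, 9 reached 1 RPM in the cow oocyte library, and 6 were at 0 reads there (AMH, CYP11A1, FOXL2, FST, INHA and LHCGR). Their summed level in the cow libraries was 439, 413, 120, 97.5 and 1037 RPM in stage order, and that of 14 such markers in pig was 66.6, 68.4, 167, 151 and 1860 RPM, with 5 of 14 at 1 RPM or more and 7 at 0 reads in the oocyte (CYP11A1, INHA, INHBA, LUM, NR5A2, PTGS2 and TNFAIP6). A few genes carried these sums. PTGS2 alone was at 902 RPM in the cow blastocyst and 1809 RPM in the pig blastocyst. STAR, HAS2 and PTGS2 were at 157, 141 and 91.3 RPM in the cow oocyte. In cow the sum was lower at the 8-16 cell stage and in the morula than before, as most of the genes below were, and its part in their results was not tested.

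GPR3 and GPR12, the receptors that keep the oocyte's cAMP high, were high in the first 2 cow libraries and had few reads or none in the other 3. Cow GPR3 was at 25.8 RPM in the oocyte (21.7 to 30.6), 35.6 at the 2-4 cell stage (30.5 to 41.6), 1.47 at the 8-16 cell stage (0.746 to 2.91), 1.54 in the morula (0.705 to 3.36) and 0 reads in the blastocyst. The oocyte and 2-4 cell intervals overlapped, as did those of the 8-16 cell stage and the morula, and the former pair stood clear of the latter. It fell 24.2-fold between the 2-4 cell and 8-16 cell stages (12.0 to 57.0), a difference of -3.89, and was at least 122-fold lower in the blastocyst than in the oocyte (a difference of -4.65).

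Cow GPR12 was at 19.5 RPM in the oocyte (15.9 to 23.8), 25.7 at the 2-4 cell stage (21.4 to 30.9) and 1.84 at the 8-16 cell stage (0.9999 to 3.39), and had 0 reads in the morula and blastocyst, which allows up to 0.769 and 0.212 RPM. Here too the oocyte and 2-4 cell intervals overlapped, and the 8-16 cell level lay below both. It fell 14.0-fold between the 2-4 cell and 8-16 cell stages (7.32 to 29.9), a difference of -3.23, and was at least 92.1-fold lower in the blastocyst than in the oocyte (-4.27). In UMD3.1, the cow build named in the submitters' processing notes, GPR3 lies on chromosome 2, 126478728 to 126479720, minus strand, and GPR12 on chromosome 12, 33114059 to 33115063, plus strand. These spans of 993 and 1005 bp are multiples of 3, as a coding length is, and whether reads from untranslated sequence entered these counts was not tested.

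In pig, GPR12 (chromosome 11, 4426797 to 4427953, minus strand) was close to the limit of detection. It had 6 reads in the oocyte (1.78 RPM, 0.814 to 3.88), 1 read at the 2-4 cell stage and 0 reads in the 3 later libraries, which allows up to 0.948, 0.999 and 0.804 RPM. All neighbouring intervals overlapped. The oocyte to blastocyst difference was -1.16, with a counting interval of -2.03 to -0.22, which did not reach the call. The oocyte level was 2.21-fold the blastocyst floor, a ratio that leaves out the counting error of the 6 oocyte reads. The pig GPR3 entry gave another course than cow GPR3: 61.6 RPM in the oocyte (53.8 to 70.5), 72.0 at the 2-4 cell stage, 115 at the 8-16 cell stage (104 to 127), 99.9 in the morula and 97.6 in the blastocyst (88.1 to 108). The oocyte and 2-4 cell levels lay below the other 3, whose intervals overlapped, and no step reached 2 (the differences were 0.22, 0.67, -0.20 and -0.03).

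The pig GPR3 counts cannot be assigned to GPR3 alone. In Sscrofa11.1, the pig build of the processing notes, its span (chromosome 6, 84610107 to 84661677, plus strand) is 51571 bp long and shares 39935 bp with WASF2 on the minus strand, a gene of actin assembly. WASF2 had 208 reads in the oocyte, the same number as GPR3, and 335, 404, 372 and 396 reads at the later stages against 298, 364, 300 and 364 for GPR3. The ratio of GPR3 to WASF2 reads thus stayed between 0.806 and 1. Whether strand was used in the counting is not given in the sources used here, and without it, reads of both genes cannot be told apart. Counts of pig members called are given below with and without GPR3.

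**Figure D1:**
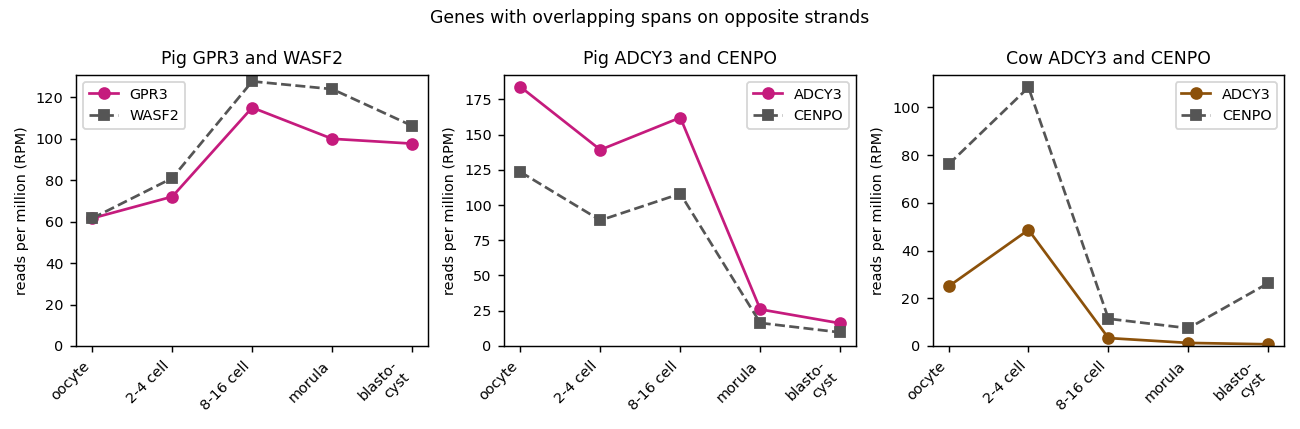
Levels in RPM (reads per 1000000, linear axes from 0) over the 5 stages for 3 pairs of genes that overlap on opposite strands, 1 library per stage. Pig GPR3 runs beside WASF2 at a ratio of 0.806 to 1, pig ADCY3 lies above CENPO at a ratio of 1.49 to 1.67, and cow ADCY3 and CENPO part, with a ratio that goes from 0.449 at the 2-4 cell stage to 0.0267 in the blastocyst.

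The adenylyl cyclases, membrane enzymes that make cAMP from ATP, differed from each other in the cow course. Cow ADCY3 was at 24.9 RPM in the oocyte (20.9 to 29.8), 48.7 at the 2-4 cell stage (42.6 to 55.6), 3.31 at the 8-16 cell stage (2.096 to 5.24), 1.28 in the morula and 0.705 in the blastocyst (0.383 to 1.30). The 2-4 cell level stood above the oocyte level, and the 3 later levels were low, with neighbouring intervals that overlapped. It fell 14.7-fold between the 2-4 cell and 8-16 cell stages (9.07 to 25.3), a difference of -3.53, and 35.4-fold from oocyte to blastocyst (18.6 to 75.6), a difference of -3.93.

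Cow ADCY9 rose at the 2-4 cell stage and ended close to its oocyte level. It was at 28.4 RPM in the oocyte (24.1 to 33.5), 56.8 at the 2-4 cell stage (50.2 to 64.2), 34.2 at the 8-16 cell stage (29.7 to 39.5), 27.4 in the morula (22.7 to 33.2) and 26.8 in the blastocyst (24.2 to 29.6). The 2-4 cell library alone stood apart, 2.00-fold above the oocyte (1.62 to 2.48), and the other 4 overlapped from neighbour to neighbour. Its differences were 0.97, -0.71, -0.31 and -0.03 over the 4 steps and -0.08 from oocyte to blastocyst, none of them called. The gene spans chromosome 25, 3242404 to 3344129, minus strand, with no other entry overlapping it. It was the only member compared in cow that was not called lower between the 2-4 cell and the 8-16 cell stage.

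Pig ADCY3 fell at a later step. It was at 184 RPM in the oocyte (170 to 199), 139 at the 2-4 cell stage, 162 at the 8-16 cell stage (149 to 177), 26.0 in the morula (20.8 to 32.4) and 16.1 in the blastocyst (12.5 to 20.7). The first 3 libraries were high and the last 2 low, with no overlap between the sets. It fell 6.24-fold from the 8-16 cell stage to the morula (4.91 to 8.02), a difference of -2.60, and 11.4-fold from oocyte to blastocyst (8.76 to 15.2), a difference of -3.44. The pig span (chromosome 3, 113876339 to 113985479) encloses CENPO, a centromere protein gene on the other strand, whose reads moved with it (417, 369, 342, 49 and 36 against 621, 576, 513, 78 and 60), so the share of these reads that belongs to ADCY3 is uncertain. In cow (chromosome 11, 74382509 to 74465215) both genes share 203 bp, and CENPO was at 7.44 RPM in the morula and 26.4 RPM in the blastocyst, where ADCY3 was at 1.28 and 0.705 RPM.

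PDE3A, which breaks down the oocyte's cAMP, went from well detected to 1 read or none in both species. Cow PDE3A was at 56.6 RPM in the oocyte (50.3 to 63.6), 80.2 at the 2-4 cell stage (72.3 to 89.0), 12.0 at the 8-16 cell stage (9.39 to 15.2), 1.28 in the morula (0.548 to 3.002) and 0 reads in the blastocyst. No neighbours in that order overlapped, so each step was beyond counting error. It fell 6.70-fold between the 2-4 cell and 8-16 cell stages (5.13 to 8.87), a difference of -2.65, and 9.33-fold from there to the morula (3.80 to 29.7), a difference of -2.51 that was -1.81 and no longer called with a pseudocount of 3 RPM.

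In the blastocyst cow PDE3A was at least 268-fold lower than in the oocyte (a difference of -5.76). Its pig counterpart was at 62.2 RPM in the oocyte (54.3 to 71.2), 43.5 at the 2-4 cell stage, 38.5 at the 8-16 cell stage, 19.6 in the morula (15.2 to 25.3) and 1 read in the blastocyst. The 2-4 cell and 8-16 cell intervals overlapped, and each other neighbour was lower than the one before. No earlier pig step was called (differences of -0.51, -0.17 and -0.94), and the call came at the last step, from 59 reads to 1 read, a 73.3-fold fall with a wide interval (12.7 to 2943) and a difference of -4.03. Between oocyte and blastocyst it fell 232-fold (41.2 to 9203), a difference of -5.64. The pig gene (chromosome 5, 52413637 to 52738207, minus strand) encloses a gene on the plus strand that the table gives by identifier only, at 12.7 RPM in the oocyte and 0 reads in the blastocyst. The cow gene (chromosome 5, 89554512 to 89620721) encloses a 5S rRNA entry with 0 reads in all 5 libraries.

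RGS2 shortens signalling by G proteins and also acts on adenylyl cyclase, and its oocyte to blastocyst difference was the largest of all members in both species. Cow RGS2 was at 972 RPM in the oocyte (945 to 1000), 983 at the 2-4 cell stage (955 to 1013), 195.1 at the 8-16 cell stage (184 to 207), 10.8 in the morula (7.97 to 14.6) and 3.88 in the blastocyst (2.98 to 5.05). The first 2 intervals overlapped, and each later library was below the one before. It fell 5.04-fold between the 2-4 cell and 8-16 cell stages (4.71 to 5.39), a difference of -2.33 that was -1.98 with median scaling and then not called, and 18.1-fold from there to the morula (13.3 to 25.3), a difference of -4.06. Between oocyte and blastocyst it fell 251-fold (192 to 333), a difference of -7.64.

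Pig RGS2 was the first member to fall. It was at 261 RPM in the oocyte (244 to 278), 50.3 at the 2-4 cell stage (43.9 to 57.6), 48.6 at the 8-16 cell stage (41.5 to 57.0), and 0 reads in the morula and the blastocyst, which allows up to 0.999 and 0.804 RPM. The course had 3 levels: the oocyte, the 2 cleavage libraries whose intervals overlapped, and the 2 libraries without reads. It fell 5.18-fold from the oocyte to the 2-4 cell stage (4.45 to 6.06), a difference of -2.35, which quantile normalisation moved to -2.00, just short of the call. From the 8-16 cell stage to the morula it was at least 48.7-fold lower (-5.26), and from oocyte to blastocyst at least 324-fold lower (-7.72). The gene lies on cow chromosome 16, 13041921 to 13045220, and pig chromosome 10, 933790 to 940311, both on the minus strand, with no other entry overlapping it in either table.

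**Figure D2:**
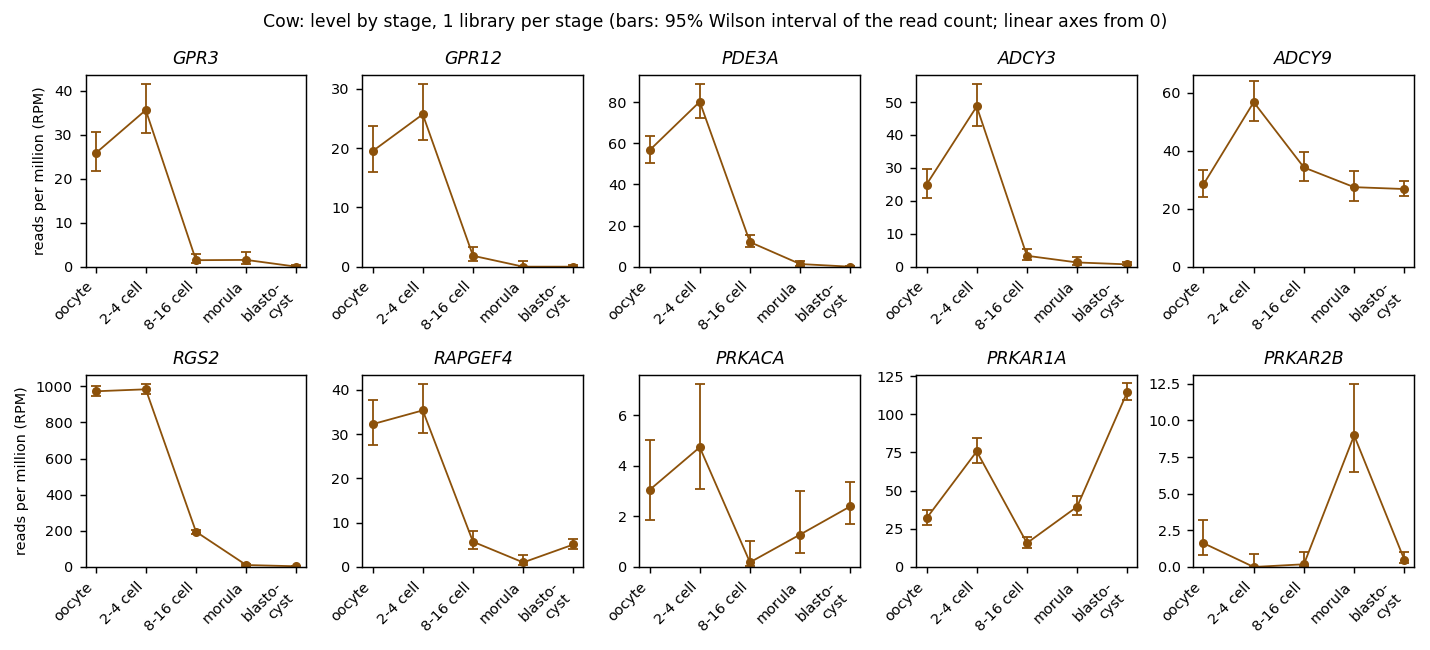
Level of each of the 10 genes in the 5 cow libraries, in RPM (reads per 1000000, linear axes from 0); points are single libraries and bars are 95% Wilson intervals of the read count. Most panels are high in the oocyte and at the 2-4 cell stage and low afterwards, whereas PRKAR1A ends at 115 RPM in the blastocyst, PRKAR2B has its highest level of 8.98 RPM in the morula, and ADCY9 ends at 26.8 RPM.

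RAPGEF4 (Epac2), a cAMP sensor that loads the small G protein Rap independently of protein kinase A, followed a similar course in cow with a partial return. Cow RAPGEF4 was at 32.3 RPM in the oocyte (27.6 to 37.7), 35.4 at the 2-4 cell stage (30.3 to 41.4), 5.71 at the 8-16 cell stage (4.02 to 8.10), 1.03 in the morula (0.399 to 2.64) and 5.08 in the blastocyst (4.03 to 6.39). The blastocyst interval overlapped that of the 8-16 cell stage and stood above that of the morula. It fell 6.20-fold between the 2-4 cell and 8-16 cell stages (4.20 to 9.43), a difference of -2.44. The next step had a difference of -1.73, not called, and -2.02 with a pseudocount of 0.5 RPM. The difference from morula to blastocyst was 1.58, not called, and 2.04 when libraries were scaled to non-mitochondrial gene reads. Between oocyte and blastocyst it fell 6.35-fold (4.78 to 8.51), a difference of -2.45.

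Pig RAPGEF4 was at 111 RPM in the oocyte (100.3 to 123), 61.4 at the 2-4 cell stage (54.3 to 69.4), 63.5 at the 8-16 cell stage (55.3 to 72.9), 2 reads in the morula and 3 reads in the blastocyst. The cleavage libraries overlapped each other, below the oocyte and far above the 2 last libraries. It fell 95.3-fold from the 8-16 cell stage to the morula (26.0 to 792), a difference of -5.27, and 138-fold from oocyte to blastocyst (46.9 to 672), a difference of -5.96. Its span (cow chromosome 2, 23644876 to 23974945; pig chromosome 15, 78820216 to 79093239) overlapped no other entry.

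The protein kinase A subunits went different ways, and no other entry overlaps any of the 3 in either table. PRKACA, the catalytic subunit alpha, had few reads in cow: 3.04 RPM in the oocyte (1.84 to 5.02), 4.73 at the 2-4 cell stage (3.09 to 7.23), 1 read at the 8-16 cell stage, 1.28 in the morula (0.548 to 3.002) and 2.40 in the blastocyst (1.72 to 3.35). The 8-16 cell library was the low one, and neighbours in the order of levels overlapped throughout. Between the 2-4 cell and 8-16 cell stages it fell from 21 reads to 1 read, 25.7-fold with a wide interval (4.13 to 1063), a difference of -2.28 that was -1.28 and not called with a pseudocount of 3 RPM. The oocyte to blastocyst difference was -0.25, within counting error (-0.91 to 0.37).

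Pig PRKACA was at 10.7 RPM in the oocyte (7.70 to 14.8), 8.22 at the 2-4 cell stage, 12.9 at the 8-16 cell stage (9.55 to 17.6), 4.00 in the morula (2.29 to 6.99) and 10.2 in the blastocyst (7.42 to 14.0). The morula was lowest, below the 8-16 cell, oocyte and blastocyst intervals, and the other 4 libraries overlapped. No step was called, and the oocyte to blastocyst difference was -0.06 (-0.66 to 0.54). PRKACA lies on cow chromosome 7, 12693768 to 12711139, and pig chromosome 2, 65074503 to 65095920.

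PRKAR1A, the regulatory subunit I alpha that binds cAMP and holds the catalytic subunit inactive without it, was the only member with its highest level in the blastocyst, and it was so in both species. Cow PRKAR1A was at 31.8 RPM in the oocyte (27.2 to 37.2), 75.7 at the 2-4 cell stage (68.0 to 84.2), 15.6 at the 8-16 cell stage (12.7 to 19.3), 39.5 in the morula (33.7 to 46.2) and 115 in the blastocyst (109 to 120). The course went up, down and up again, and only the morula and oocyte intervals overlapped. It fell 4.84-fold between the 2-4 cell and 8-16 cell stages (3.80 to 6.21), a difference of -2.20, the only one of its steps that was called, which median scaling moved to -1.87 and quantile normalisation to -1.87. The blastocyst level was 3.60-fold the oocyte level (3.06 to 4.27), a difference of 1.82 short of the call, which became 2.23 with scaling to non-mitochondrial gene reads and 2.12 with quantile normalisation.

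Pig PRKAR1A was at 134 RPM in the oocyte (122 to 147), 85.5 at the 2-4 cell stage, 75.5 at the 8-16 cell stage, 46.6 in the morula (39.5 to 55.0) and 147 in the blastocyst (135 to 160). The oocyte and blastocyst intervals overlapped at the top, and the morula stood alone at the bottom. No step was called, the largest being 1.64 from morula to blastocyst, and the oocyte to blastocyst difference was 0.13 (-0.04 to 0.31). PRKAR1A lies on cow chromosome 19, 62317497 to 62328889, and pig chromosome 12, 11661872 to 11681435.

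PRKAR2B, the regulatory subunit II beta, had its highest level in the morula in cow and in the oocyte in pig. In cow it had 8 reads in the oocyte (1.62 RPM, 0.822 to 3.20), 0 reads at the 2-4 cell stage, which allows up to 0.676 RPM, 1 read at the 8-16 cell stage, 35 reads in the morula (8.98 RPM, 6.45 to 12.5) and 7 reads in the blastocyst (0.494 RPM, 0.239 to 1.02). The morula alone stood above the rest. The rise to the morula was 48.8-fold over the 8-16 cell stage, with a wide interval (8.20 to 1980) and a difference of 3.07, and fell 18.2-fold from there to the blastocyst (7.96 to 48.5), a difference of -2.74. With a pseudocount of 3 RPM these differences were 1.91 and -1.78 and not called.

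Pig PRKAR2B was at 15.1 RPM in the oocyte (11.5 to 19.9), 7.73 at the 2-4 cell stage (5.48 to 10.9), 10.1 at the 8-16 cell stage (7.16 to 14.3), 2.00 in the morula (0.916 to 4.36) and 0 reads in the blastocyst. The first 3 libraries were above the last 2. The step to the morula had a difference of -1.89, not called, and reached -2.03 to -2.09 under 4 alternatives (non-mitochondrial, median and quantile scaling, and a pseudocount of 0.5 RPM). From oocyte to blastocyst it was at least 18.8-fold lower (a difference of -3.70). PRKAR2B lies on cow chromosome 4, 48434955 to 48535433, and pig chromosome 9, 106851125 to 106957515.

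**Figure D3:**
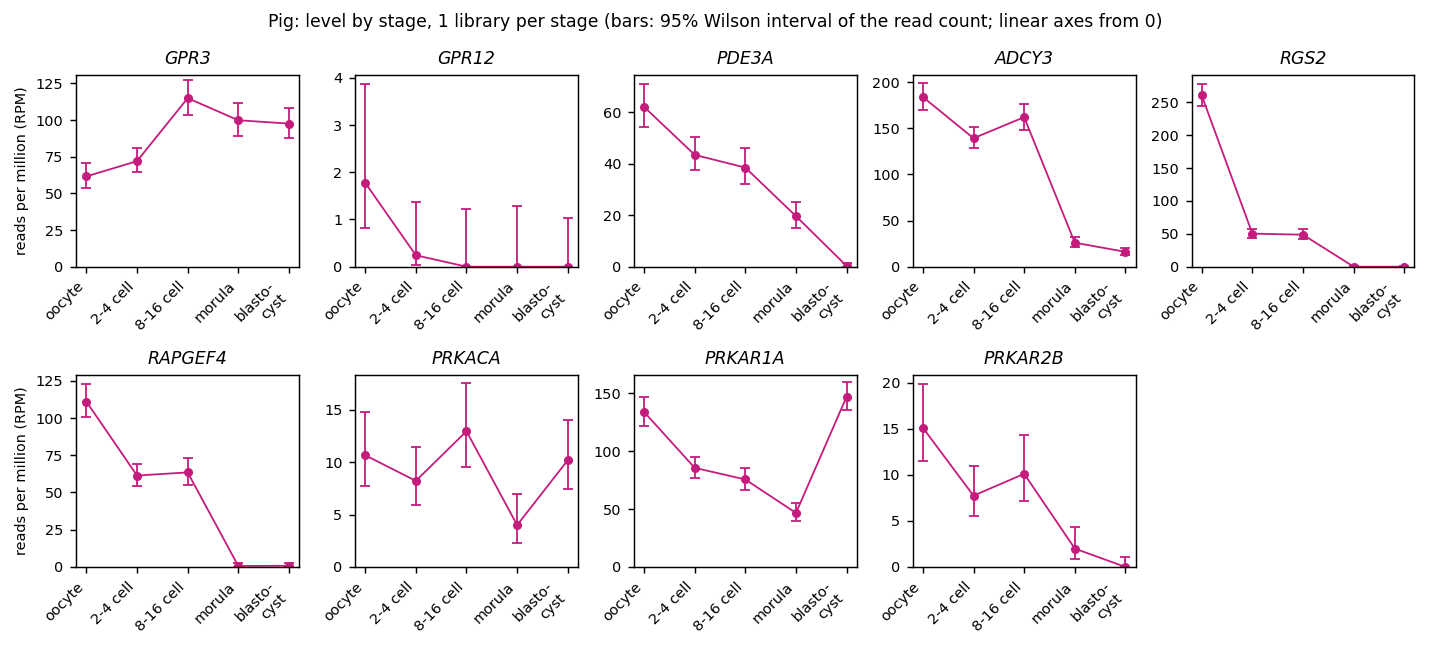
Level of each of the 9 genes found in the pig table over the 5 pig libraries, in RPM (reads per 1000000, linear axes from 0); points are single libraries and bars are 95% Wilson intervals of the read count. PDE3A, ADCY3, RGS2, RAPGEF4 and PRKAR2B go from high in the oocyte to low in the blastocyst, PRKAR1A has its lowest level of 46.6 RPM in the morula, and the GPR3 panel holds reads that may belong to WASF2.

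The step at which the genes fell differed between the 2 courses. Between the cow oocyte and the 2-4 cell embryo 0 of 10 members were called, where 0.374% of 11226 genes were (0.196% higher and 0.178% lower). At that step 9 of 10 members had a difference above 0 (median 0.47, against 0.27 over all genes compared), and the number above 0 was 7 with median scaling, which moved the median of all genes to -0.01. Between the 2-4 cell and 8-16 cell stages 8 of 9 cow members fell (GPR3, GPR12, PDE3A, ADCY3, RGS2, RAPGEF4, PRKACA and PRKAR1A) and none rose. Of all 12405 genes compared at that step 14.6% fell and 12.6% rose, 27.2% in all. The members had a median of -2.44, and all genes one of -0.44. The mitochondrial share was 2.74% before and 10.7% after this step, and with scaling to non-mitochondrial gene reads the count was again 8 of 9. It was 7 of 9 with quantile normalisation or a pseudocount of 3 RPM and 6 of 9 with median scaling. With a minimum of 5 RPM, where PRKACA was not compared, it was 7 of 8. The summed level of the cumulus and granulosa markers was 413 RPM before and 120 RPM after it, and their part in the count was not tested.

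Later cow steps moved few members. From the 8-16 cell stage to the morula PDE3A and RGS2 fell and PRKAR2B rose, 3 of 10 members, where 11.8% of all genes were called (5.15% lower and 6.67% higher). From the morula to the blastocyst PRKAR2B alone fell, 1 of 9, where 23.4% of all genes were called (11.5% lower and 11.9% higher). Over the whole cow course, oocyte against blastocyst, 6 of 10 members fell and 0 rose, with a median of -3.19. Of all 12738 genes compared 18.4% fell and 21.8% rose, 40.2% in all, with a median of 0.18.

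In pig the members fell in a more spread order. From the oocyte to the 2-4 cell stage RGS2 fell, 1 of 9 members or 1 of 8 without GPR3, where 5.43% of all genes were called (2.17% lower and 3.26% higher). Between the 2-4 cell and 8-16 cell stages 0 of 8 members (0 of 7 without GPR3) were called, where 4.87% of all genes were (0.543% lower and 4.33% higher). From the 8-16 cell stage to the morula ADCY3, RGS2 and RAPGEF4 fell, 3 of 8 members or 3 of 7 without GPR3, and none rose. Of all 12746 genes compared at that step 11.3% fell and 12.0% rose, 23.3% in all. The members had a median of -1.69 there, and all genes one of 0.18. From the morula to the blastocyst PDE3A fell, 1 of 6 or 1 of 5 without GPR3, where 27.6% of all genes were called (13.8% in each direction).

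Over the whole pig course 5 of 9 members fell and 0 rose (5 of 8 without GPR3). Of all 12512 genes compared 19.2% fell and 26.0% rose, 45.2% in all. The median was -3.44 over the members and 0.43 over all genes, or -3.16 and 0.31 with values below the floor set to the floor. Without GPR3, PDE3A and ADCY3, the 3 pig members whose reads overlap another gene, 3 of 6 fell. PDE3A, ADCY3, RGS2 and RAPGEF4 fell from oocyte to blastocyst in both species, 4 of 9 members, where 8.49% of the 8566 symbols compared in both species did. No member moved by 2 or more in opposite directions over that course. Of all symbols 1.42% rose in cow and fell in pig and 1.61% went the other way. With shares this small, 9 members are too few for a comparison.

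**Figure D4:**
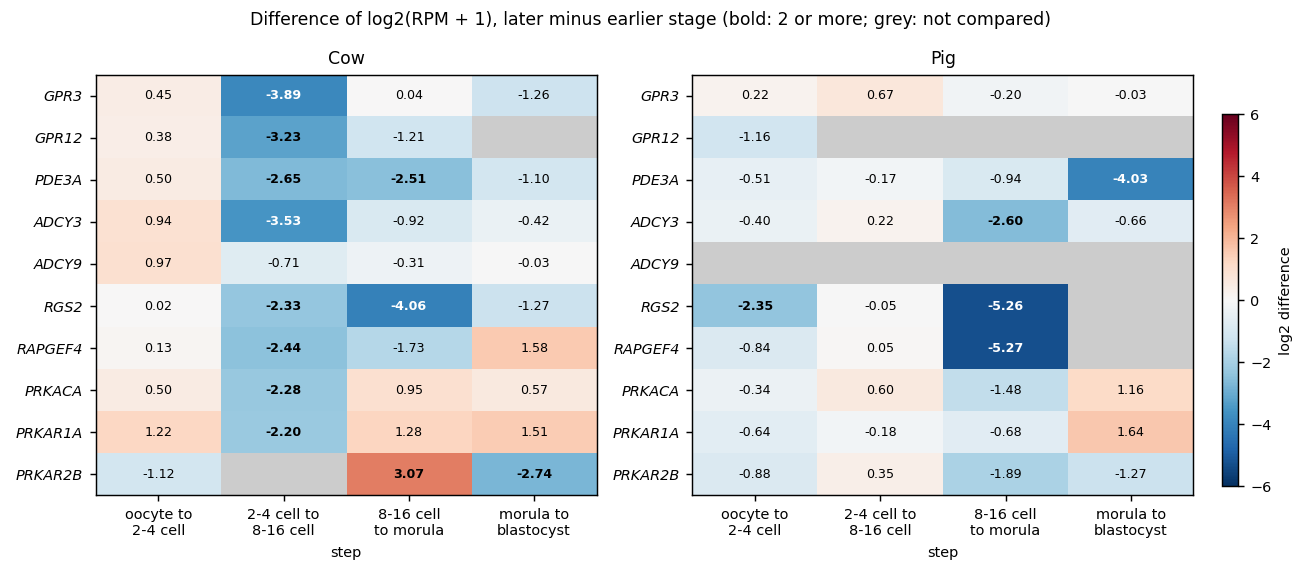
Difference of log2(RPM + 1) between consecutive stages, later minus earlier, for each gene (vertical) and step (horizontal) in cow and pig, 1 library per stage; blue is lower, red is higher, bold values reach 2 and grey cells were not compared. Bold blue cells fill the cow step between the 2-4 cell and 8-16 cell stages (8 of 9), whereas in pig they are spread over 3 steps, with 3 of 8 at the step between 8-16 cells and the morula.

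The stage of the highest level summarises the same courses. In cow it was the 2-4 cell library for 8 of 10 members, where 26.2% of 14078 genes with at least 1 RPM in a library had theirs, the morula for PRKAR2B and the blastocyst for PRKAR1A. The exact interval of the ratio between the oocyte and 2-4 cell libraries included 1 for RGS2, RAPGEF4, GPR12 and PRKACA, so their order within that pair was not detectable at this depth. For GPR3 it was 1.09 to 1.76, although the intervals of its levels overlapped. Median scaling put RGS2 and RAPGEF4 highest in the oocyte and left 6 at the 2-4 cell stage. In pig the highest level was in the oocyte for 6 of 9 members, against 18.5% of 14050 genes, at the 8-16 cell stage for GPR3 and PRKACA, and in the blastocyst for PRKAR1A. The oocyte interval overlapped that of the next highest library for ADCY3, GPR12 and PRKAR2B, and scaling to non-mitochondrial gene reads put ADCY3 highest at the 8-16 cell stage and left 5 in the oocyte.

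Genes with the most similar courses were ranked by Pearson's r of log2(RPM + 1) over the 10 libraries, each species centred on its own mean, among 6278 symbols that reached 10 RPM in a library of each species. These r values describe 10 libraries that share depth, scaling and stage order, and carry no p. For PDE3A they were BRINP2 (0.996) and ITGA4 (0.992), for RGS2 UCHL1 (0.995) and RGS16 (0.985), for RAPGEF4 RWDD2A (0.997) and TENM2 (0.983), and for ADCY3 IL2RA (0.993) and GTF3C2 (0.992). PRKAR1A was closest to PAK1 (0.955) and PINK1 (0.947). GPR3, with the limit on its pig reads, was closest to IPP (0.981) and USP6NL (0.970). Pig ADCY3 and PDE3A also overlap other entries, so their r values may in part describe reads of those entries. BRINP2 had 74.6, 64.2, 13.1, 1.80 and 0 RPM in the cow libraries in stage order, and 70.5, 46.4, 53.7, 20.6 and 0 RPM in pig, high in the same libraries as PDE3A. GPR12, PRKACA and PRKAR2B did not reach 10 RPM in both species and were not ranked, nor was ADCY9, which has cow values only.

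Genes of the wider cAMP pathway moved in both directions. Of 66 further genes listed for it (G protein subunits, other receptors, cyclases, phosphodiesterases, kinase subunits and inhibitors, anchoring proteins and cAMP-responsive transcription factors), 64 were in the cow table and 59 in the pig table. From oocyte to blastocyst 10 of 49 compared in cow fell and 9 rose, with a median of -0.77 against 0.18 over all genes. In pig 9 of 45 fell and 12 rose, with a median of 0.01 against 0.43. With quantile normalisation these pig medians were -0.53 and 0.02. The share that fell was 20.4% in cow, beside 18.4% of all genes, and the share that rose was 26.7% in pig, beside 26.0% of all genes. At the cow step between the 2-4 cell and 8-16 cell stages 10 of 50 listed genes fell and 6 rose, 20% and 12%, beside 14.6% and 12.6% of all genes. These counts were 5 and 2 with a pseudocount of 3 RPM.

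RGS16, another regulator of G protein signalling, fell in both species. It went from 165 RPM in the cow oocyte to 184, 17.5, 1.54 and then 0 reads in the blastocyst, at least 782-fold lower, and in pig from 52.4 RPM to 17.6, 23.7 and then 0 reads in the morula and blastocyst, at least 65.2-fold lower. GNAI1, an inhibitory G protein subunit, fell 13.8-fold in cow (12.7 to 14.9), from 726 to 52.7 RPM, and went from 298 to 58.4 RPM in pig. ADORA2B, an adenosine receptor coupled to the stimulatory G protein, fell 59.3-fold in cow (24.6 to 186), from 20.9 to 0.353 RPM, and in pig it went from 2.66 RPM to 0 reads.

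Among kinase genes, PRKACB, the catalytic subunit beta, fell in both species. In cow it went from 293 RPM in the oocyte through 233, 132 and 63.9 to 14.7 RPM in the blastocyst, 19.98-fold lower (17.3 to 23.2), and in pig from 60.7 to 2.95 RPM, where another entry overlaps it. PRKAR2A, the regulatory subunit II alpha, rose in pig from 2.66 to 61.4 RPM, 23.0-fold (11.9 to 51.04), also with another entry overlapping it, and stood at 93.5 and 118 RPM in cow. PKIA, an inhibitor peptide of the catalytic subunit, was at 0 reads in the pig oocyte and 20.1 RPM in the blastocyst, at least 22.6-fold higher, and at 9.74 and 74.6 RPM in cow. The anchoring protein AKAP11 fell 16.8-fold in cow (15.7 to 18.1), from 1012 to 60.1 RPM, and AKAP13 rose 16.8-fold (13.0 to 22.0), with 12.4 RPM in the oocyte, 378 in the morula and 208 in the blastocyst.

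Other phosphodiesterases than PDE3A moved both ways in pig. PDE8B fell 124-fold (56.7 to 339), from 200 RPM in the oocyte to 1.61 RPM in the blastocyst, although 3 entries overlap its span. PDE1A was at 0 reads in the oocyte and reached 83.9 RPM in the morula and 35.1 RPM in the blastocyst, at least 39.5-fold above the oocyte. PDE7B went from 5.03 to 321 RPM in the morula and 97.3 RPM in the blastocyst, 19.3-fold above the oocyte (11.9 to 33.6), with another entry overlapping it. In both species 5 listed genes rose from oocyte to blastocyst (ADCY10, CREB1, CRTC1, PDE1A and PKIA), which is 5 of the 9 that rose in cow and of the 12 in pig, and 3 fell (GNAI1, PRKACB and RGS16), 3 of the 10 in cow and of the 9 in pig. Of the 35 listed genes compared in both species these are 14.3% and 8.57%, beside 11.2% and 8.49% of all symbols. ADCY10, CREB1 and CRTC1, the pig values of GNAI1, ADORA2B and PRKACB, and the cow values of PRKAR2A, PKIA and PDE1A lie outside the rule for named genes and were added after they were seen.

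**Figure D5:**
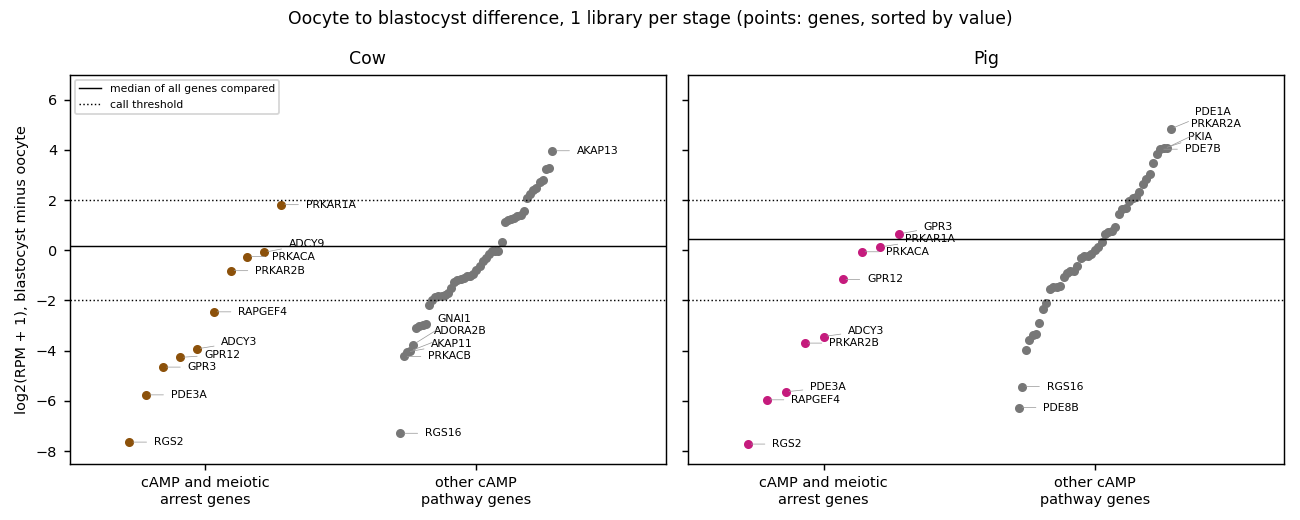
Difference of log2(RPM + 1) from oocyte to blastocyst for the 10 cow and 9 pig cAMP and meiotic arrest genes (coloured) and the other cAMP pathway genes compared (grey, 49 in cow and 45 in pig), 1 point per gene sorted by value within each set; the solid line is the median of all genes compared and dotted lines mark the call at 2. In cow 6 of 10 and in pig 5 of 9 coloured points lie below the lower dotted line and none above the upper one, and grey points lie beyond both lines.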

How the data were processed

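RNA sequencing values of 10 libraries (5 cow, 5 pig, 1 per stage) were used. The deposited tables, 1 per species, hold log2 values per gene and stage, which the authors had scaled to reads per 1000000, as read from the values. Per the submitters' processing notes, Trim Galore 0.6.4, HISAT2 2.1.0 and the builds UMD3.1 and Sscrofa11.1 were used; the counting method, annotation, strand and duplicate handling are not given in the sources used here. From each deposited log2 column the value of 1 read was found, and 99.94% to 99.99% of the values were whole reads within 0.01 of a read. Read counts, RPM, intervals and differences were computed from these with Python 3.11.15, numpy 2.4.6, pandas 2.3.3 and scipy 1.17.1. The test on simulated data covered the calls from oocyte to blastocyst. In each species 200 of 200 changed genes and 0 unchanged genes were called. All entries of a table gave the background shares, and repeated symbols were represented by the entry of highest mean. No column of values was left unused. The members and gene lists were chosen with earlier results of these data known. Genes named were all members, the 6 pathway genes per species with the largest oocyte to blastocyst difference, and the 2 most similar genes per member with 10 RPM in both species. There were 11 alternatives planned (pseudocount, minimum, threshold, scaling, depth, repeated symbols), and 1 (0 reads taken as 0) was chosen after seeing the data. Levels near the floor are the least precise, and the cow blastocyst library is the most precise.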

Additional observations from a re-analysis of the deposited data

Results flagged for a closer look

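For 4 genes the same step went in opposite directions in cow and pig, with both counting intervals off 0 and at least one of the differences of log2(RPM + 1) past 2. With 1 library per stage the difference between the species was not tested. GPR3 had a difference of -3.89 in cow and 0.67 in pig between the 2-4 cell and 8-16 cell stages, and of -4.65 and 0.66 from oocyte to blastocyst. The pig values hold reads that cannot be told apart from those of WASF2. ADCY3 had a difference of -3.53 in cow and 0.22 in pig between the 2-4 cell and 8-16 cell stages, where the pig reads overlap those of CENPO. The pig difference was -0.08 with median scaling, so its direction depends on the scale, while the other 9 values kept their sign under all alternatives. PRKACA had a difference of -2.28 in cow, resting on 1 read at the 8-16 cell stage, and of 0.60 in pig at the same step, where the exact interval of the ratio, 0.976 to 2.56, includes 1. PRKAR2B had a difference of 3.07 in cow and -1.89 in pig from the 8-16 cell stage to the morula, the cow value again resting on 1 read at the 8-16 cell stage.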

How the results depend on the processing

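No paired analysis was possible because each group had 1 library, and for the same reason no library could be left out in turn. All 28 called differences of members kept their sign under the 12 alternatives in which they were compared (27 of 27 with a minimum of 5 RPM). No call of a member still compared was lost with other minimums, thinned reads, summed symbols or 0 reads taken as 0. With a minimum of 5 RPM cow PRKACA was no longer compared between the 2-4 cell and 8-16 cell stages. This left 7 of 8 members called there. The number of members called moved by more than 1.5 times as follows; where a cause is not given by the setting itself, it was not tested. With a pseudocount of 3 RPM it was 1 in place of 3 from the cow 8-16 cell stage to the morula and 0 in place of 1 from the cow morula to the blastocyst. With a threshold of 1 it was 2 in place of 0 at the first cow step, 6 in place of 3 and 6 in place of 1 at the last 2 cow steps, and 2 in place of 1, 5 in place of 3 and 4 in place of 1 at the first, the third and the fourth pig step. With a threshold of 3 it was 3 in place of 8 between the cow 2-4 cell and 8-16 cell stages, 0 in place of 1 from the cow morula to the blastocyst, and 0 in place of 1 at the first pig step. Scaling to non-mitochondrial gene reads gave 2 in place of 1 at the last cow step, and quantile normalisation 0 in place of 1 at the first pig step. Over all genes, the 5 cow comparisons (the 4 steps in order, then oocyte to blastocyst) called 42, 3372, 1458, 2963 and 5122, against 1343, 7801, 5180, 7199 and 8973 at a threshold of 1, 0, 1123, 341, 1032 and 2681 at a threshold of 3, and 12, 2274, 773, 1689 and 3633 with a pseudocount of 3 RPM. The pig comparisons called 617, 592, 2968, 3471 and 5650, against 3101, 3086, 7189, 7518 and 9075, then 127, 89, 897, 1454 and 3233, and 206, 193, 1940, 2260 and 4265. A pseudocount of 0.5 RPM gave 107 at the first cow step and 991 and 990 at the first 2 pig steps, and scaling to non-mitochondrial gene reads gave 64 at the first cow step. Of the pathway genes called from oocyte to blastocyst, 19 in cow and 21 in pig, 39 and 30 were called at a threshold of 1, 10 and 13 at a threshold of 3, and 12 and 16 with a pseudocount of 3 RPM. Between the cow 2-4 cell and 8-16 cell stages 16 were called, against 31, 2 and 7 in the same order. The share of called genes that rose moved with the scaling, most at the first 2 steps. In cow it went from 52.4% to 22.5% (median scaling) or 24.4% (quantile normalisation) and then from 46.5% to 60.6% (median scaling). In pig it went from 60.0% to 77.8% (median scaling) and then from 88.9% to 77.0% (median scaling) or 62.7% (quantile normalisation). Later moves were smaller, and some turned the majority. From the 8-16 cell stage to the morula median scaling moved the share from 56.4% to 49.0% in cow and from 51.7% to 42.5% in pig. For cow oocyte to blastocyst it went from 54.2% to 62.9% with non-mitochondrial gene reads. The scalings shifted the median of all genes by between -0.41 (pig oocyte to blastocyst, quantile normalisation) and 0.42 (cow oocyte to blastocyst, non-mitochondrial gene reads), and a difference of that size may reflect the scale alone. Depth limits GPR12 in pig and PRKACA and PRKAR2B in cow, which had between 0 and 35 reads per library.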

Other observations

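The gene list of the wider pathway held 1 gene that was called in opposite directions from oocyte to blastocyst, of 35 compared in both species. It rose in cow and fell in pig, 2.86% of the list beside 1.42% of all symbols. In the other direction there were 0 of 35, beside 1.61% of all symbols. AKAP12, an anchoring protein of protein kinase A, was at 37.7, 57.7, 6.81, 2.56 and 362 RPM in the cow libraries in stage order, a rise of 3.23 on the log2(RPM + 1) scale from oocyte to blastocyst, and at 13.6, 17.2, 17.7, 61.9 and 2.41 RPM in pig, where it fell by 2.099. The highest level was thus in the cow blastocyst and in the pig morula, and the difference between the species was not tested. The pig fall passed the threshold of 2 only narrowly.

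Some phosphodiesterases had their highest level in the morula. So did 19.4% of the cow genes and 24.5% of the pig genes with at least 1 RPM in a library. The share among all listed phosphodiesterases was not counted. PDE3B, the second member of the PDE3 family, was at 34.5, 30.0, 36.6, 176 and 91.8 RPM in cow and at 7.70, 14.3, 21.2, 64.6 and 7.78 RPM in pig. PDE10A in pig was at 19.5, 27.1, 37.3, 113 and 78.0 RPM. By contrast, PDE4D in pig went from 119 RPM in the oocyte to 450 and 488 RPM in the cleavage libraries, 20.3 RPM in the morula and 187 RPM in the blastocyst. These genes were named after their values were seen.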
